A study of Mus musculus with 8 samples.

Results

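The arrays of 3T3-L1 adipocytes titled replicate 1 were compared with those titled replicate 2, across 4 treatments, to describe which adipocyte programmes differed between replicate numbers whatever the fibre. The members were chosen by title, and no measured value was used. They are 4 arrays of replicate 1 and 4 of replicate 2, which together make up all 8 samples of the series. 3T3-L1 is a mouse preadipocyte line that is differentiated in culture into fat cells. The mature adipocytes had been kept for 72 h with chrysotile, crocidolite or amosite asbestos at 10 mg/cm2, the unit as labelled, or with physiological saline. Each treatment had 1 array of replicate 1 and 1 of replicate 2, so the numbers are crossed with treatment. All samples are total RNA of 1 cell line for which no transgene or deletion is labelled, read in 1 colour (Cy3) on Agilent mouse arrays. The labels describe duplicate arrays and do not say whether the numbers stand for separate cultures, differentiations or hybridisations of 1 RNA. The spread behind the p-values below is that between these samples and may be technical.

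An adipocyte culture holds cells at different stages of differentiation. The master regulators Pparg and Cebpa switch on lipid storage, insulin response and secreted adipokines, while preadipocyte genes such as Dlk1 fall silent. Adipocytes also answer interferon with antigen presentation genes, and answer amino acid shortage or misfolded protein through the integrated stress response, in which ATF4 drives Atf3, Ddit3 and amino acid enzymes. Each of these programmes can differ between culture dishes of a line.

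On each array, between 56.2% and 62.8% of the 55672 probes analysed were well above background by the scanner software's own call, no spot was saturated, and the 75th percentile of intensity lay between 340.1 and 453.4. Precision is limited by how few arrays there are. Levels are log2 intensity relative to the 75th percentile of the same array, so a negative level is a probe dimmer than that percentile. The sign of a difference is replicate 1 minus replicate 2. The 8 arrays lay on 1 slide scanned on 1 date, with replicate number as the slide column and treatment as the slide row. Replicate number and slide column cannot be told apart. The label of an adipocyte was borne out by its defining markers, with Adipoq, Fabp4, Plin1 and Pparg above background on all 8 arrays. Markers of other cell types were divided. The preadipocyte genes Dlk1, Pdgfra and Cd34, the macrophage genes Cd68 and Csf1r and the endothelial gene Pecam1 were also above background on all 8. The endothelial gene Cdh5 and the muscle genes Myh4 and Myog were above background on none, Ckm on 1, and the leukocyte genes Adgre1 and Ptprc on 3 and 4 arrays.

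The replicate number was the largest single axis of variation among probes measured on every array. Over the 28695 probes above background on all 8 arrays, the first principal component held 36.0% of the variance and separated the numbers without overlap. In replicate 1 the saline array scored -37.5, the chrysotile array -18.7, the crocidolite array -13.8 and the amosite array -22.2, against 20.6, 27.7, 27.4 and 16.5 in replicate 2. The second component, with 24.6%, set chrysotile and crocidolite arrays above saline and amosite arrays within each number. In a split of the sum of squares over the same probes, replicate number took 34.8% with 1 degree of freedom, treatment 38.8% with 3, and the remainder 26.4% with 3.

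**Figure D1:**
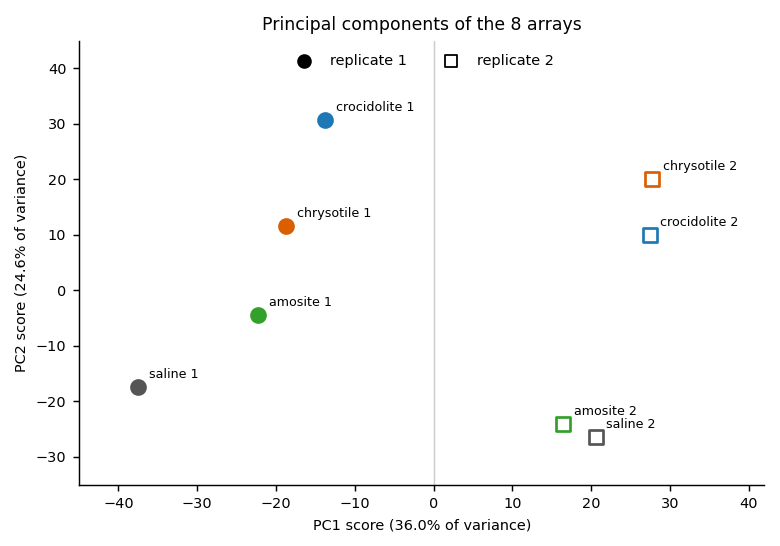
Scores of the 8 arrays on the first and second principal components, computed from the 28695 probes above background on all 8 arrays (filled circles, replicate 1; open squares, replicate 2; colour, treatment). The replicate 1 arrays lie between -37.5 and -13.8 on the first component and the replicate 2 arrays between 16.5 and 27.7.

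The difference between the numbers was not of equal size in the 4 treatments. Its SD over the 28695 probes was 0.44 log2 in the saline pair, 0.37 in the chrysotile pair, 0.34 in the crocidolite pair and 0.32 in the amosite pair. The share of probes that differed by more than 2-fold within a pair was 3.60%, 2.21%, 1.66% and 1.30% in the same order. Differences in separate pairs resembled each other most between crocidolite and amosite (r = 0.57 across probes) and least between saline and chrysotile (r = 0.27). These correlations describe probes, which are not independent replicates. For scale, spots of the same probe repeated on 1 array differed by a median SD of 0.110 log2 on the saline array of replicate 1 and of 0.066 to 0.077 on the other 7 arrays.

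With all 55672 probes and the treatment as a block, limma called 0 probes at an adjusted p of 0.05 (0.0% called). At an unadjusted p under 0.05 there were 10516 probes, 7072 higher and 3444 lower in replicate 1, and the smallest adjusted p was 0.0728. When the same test was limited to the 28695 probes above background on all 8 arrays, 1946 were called (6.78%). Of these, 1037 were higher in replicate 1 (3.61%) and 909 lower (3.17%). In what follows "rose" and "fell" refer to replicate 1 relative to replicate 2 and are used only of probes called in this limited test. The ± values are SE of the log2 difference from the fit of all probes (4 pairs), and adjusted p-values are limma's, Benjamini-Hochberg over the 28695 probes. Median centring in place of the 75th percentile turned the split to 808 higher and 1546 lower.

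The limited test depended on all 4 pairs. It called 957 probes without the saline pair, 366 without the chrysotile pair, 74 without the crocidolite pair and 26 without the amosite pair. Of these, 776, 345, 72 and 25 had been among the 1946. All 1946 had the same sign in the 4 treatments, and in 1686 the replicate 1 and replicate 2 arrays did not overlap. Over all 28695 probes, replicate 1 lay wholly above replicate 2 in 9.97% and wholly below it in 8.47%, and the 4 treatments agreed on higher in 20.3% and on lower in 17.4%. The lists below use the brightest probe of each gene. Read that way, 3.63% of 13922 genes with a symbol rose and 3.57% fell. The 4 treatments agreed on higher in 2784 of these genes and on lower in 2784. The median size of the 1946 called probes was 0.55 log2, and 91 rose and 87 fell by more than 2-fold.

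Antigen presentation genes were lower in replicate 1. The list had 16 genes above background, 15 of which had a negative difference, and the median difference was -0.47 against 0.01 over all 28695 probes. Of the 16, 6 fell and 0 rose, where 3.17% of all probes fell. Tap2 and Tap1, which together form the pump that loads peptides for class I molecules, both fell. Tap2 (chr17:34353116-34353175, mm9) had levels of 2.42 in saline, 2.74 in chrysotile, 2.55 in crocidolite and 2.24 in amosite cells of replicate 1, against 4.0, 4.10, 4.05 and 3.79 in replicate 2. Every replicate 1 array lay below every replicate 2 array, by more than the spread among treatments. The difference was -1.5 ± 0.08 (adjusted p = 0.0054). Tap1 fell by 0.67 ± 0.11, and Psmb8, a subunit of the immunoproteasome that cuts those peptides, by 0.61 ± 0.14. Nlrc5, the activator of class I transcription, fell by 0.49 ± 0.10 (its second probe gave -0.19 ± 0.11 and was not called). The class I heavy chains H2-K1 and H2-Q6 fell by 0.44 ± 0.09 and 0.59 ± 0.13, although probes of this multigene family may share signal. Leaving out any 1 pair reduced the 6 calls to 1.

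Interferon response genes were shifted the same way, with fewer calls. Of 40 genes above background, 36 had a negative difference (median -0.38). Of the 40, 23 were lower in all 4 treatments (17.4% of all probes were), and 4 fell (3.17% of all probes did). The shift was uneven among treatments, with list medians of -0.76 in the saline pair, -0.37 in chrysotile, -0.04 in crocidolite and -0.36 in amosite. Bst2, which tethers budding virions to the cell surface, had levels of 3.34, 4.54, 4.03 and 3.16 in saline, chrysotile, crocidolite and amosite cells of replicate 1, against 5.06, 5.13, 5.07 and 4.62 in replicate 2. Its replicate 1 arrays varied with treatment, yet all lay below the replicate 2 arrays (difference -1.20 ± 0.21, adjusted p = 0.0288). Irf7, a transcription factor of the interferon loop, fell by 0.90 ± 0.12, Ifih1, a sensor of viral RNA, by 0.60 ± 0.12, and Trim25, a ubiquitin ligase of RNA sensing, by 0.45 ± 0.09. A second Trim25 probe gave -0.01 ± 0.07 and was not called. Isg15, a ubiquitin-like modifier, was not called: its difference was -0.65 ± 0.26, with -1.54 in the saline pair and -0.14 in the crocidolite pair. The 4 calls became 1 without the saline pair, 1 without chrysotile and 0 without crocidolite or amosite, and 12 with median centring.

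Promoters of this list often held the core of the interferon-stimulated response element, searched on both strands as GAAA, any 2 bases and GAAA in the 250 bases before the RefSeq start (build GRCm38.p6). It was present in 13 of 29 list genes with a promoter sequence, against 3.15% of 10974 genes above background. The 3 sequences below, 5′ to 3′ on the strand of the gene, are examples of list members with the match. They are Bst2 (-1.20), Isg15 (-0.65, not called) and the chemokine Cxcl10 (-0.72, not called). In each, 1 match is in capitals, and the Bst2 and Isg15 stretches hold further matches that overlap or follow it. A match is a description of letters and not a measured binding site. Among the 4 genes that fell, Bst2 alone held it. In the antigen presentation list 2 of 14 genes with a promoter sequence held it, and 0 of the 4 that fell did.
Bst2, chr8:71537553-71537642, minus strand: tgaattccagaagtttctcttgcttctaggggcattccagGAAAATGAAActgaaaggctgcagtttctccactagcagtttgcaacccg
Isg15, chr4:156200847-156200936, minus strand: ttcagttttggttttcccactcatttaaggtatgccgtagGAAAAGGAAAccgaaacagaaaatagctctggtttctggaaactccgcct
Cxcl10, chr5:92349053-92349139, minus strand: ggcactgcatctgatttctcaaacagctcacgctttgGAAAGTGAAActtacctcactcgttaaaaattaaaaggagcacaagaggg

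Macrophage markers were divided between the numbers. Of the 9 above background on all 8 arrays, 2 fell (3.17% of all probes did), 5 had a negative and 4 a positive difference, and the median was -0.15. The summed level of 21 macrophage markers was 5.97 to 6.08 log2 in replicate 1 and 6.08 to 6.26 in replicate 2. Mpeg1, a pore-forming protein of macrophages, fell by 1.38 ± 0.22, and Marco, a scavenger receptor, by 0.60 ± 0.09. Cd68 and Csf1r, of which Cd68 marks lysosomes of macrophages and Csf1r is their growth factor receptor, had differences of 0.18 ± 0.10 and -0.15 ± 0.14 and were not called. The leukocyte genes Adgre1 and Ptprc, dim on some arrays, gave 0.22 ± 0.32 and 0.26 ± 0.31. The part of macrophage-like cells or genes in the interferon difference was not tested. In bulk RNA, fewer cells of a type and less RNA per cell cannot be told apart.

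Genes of the mature adipocyte tended to be lower in replicate 1, while the most abundant of them differed little outside the saline pair. Of 24 adipocyte identity genes above background, 21 had a negative difference (median -0.25). Of the 24, 15 were lower in all 4 treatments (17.4% of all probes), 5 fell (3.17% of all probes) and 0 rose. Adrb3, the beta-3 adrenergic receptor of fat cells (chr8:28336268-28336327, mm9), had levels of 4.97, 4.65, 4.75 and 4.85 in saline, chrysotile, crocidolite and amosite cells of replicate 1, against 6.46, 5.86, 6.02 and 6.20 in replicate 2. The groups did not overlap, and the difference was -1.33 ± 0.09 (adjusted p = 0.0055). A second Adrb3 probe gave -1.34 ± 0.08. Cebpa, the adipogenic transcription factor, had levels of 3.05, 2.95, 2.92 and 3.09 in replicate 1, against 3.71, 3.52, 3.61 and 3.62 in replicate 2 (same order of treatments). It fell by 0.61 ± 0.08, and the spread within each number was 0.08 (SD, n = 4). Car3, a carbonic anhydrase abundant in fat, fell by 1.06 ± 0.23, Lgals12, a lipid droplet lectin, by 0.57 ± 0.09, and Plin1, the perilipin that coats lipid droplets, by 0.44 ± 0.10. By contrast Adipoq averaged 9.21 ± 0.06 in replicate 1 and 9.34 ± 0.21 in replicate 2, and Fabp4, the fatty acid carrier, 9.48 ± 0.10 in replicate 1 and 9.61 ± 0.12 in replicate 2 (SD, n = 4). Pparg differed by -0.20 ± 0.11 and Cfd, the adipsin gene, by 0.02 ± 0.09, and none of these 4 was called. In the saline pair Adipoq, Fabp4 and Pparg differed by -0.46, -0.44 and -0.48, against -0.13 to 0.12 in the fibre pairs. The list median was -0.41 in the saline pair, -0.16 in chrysotile, -0.25 in crocidolite and -0.25 in amosite. The 5 calls became 3, 2, 1 and 0 without the saline, chrysotile, crocidolite and amosite pair.

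**Figure D2:**
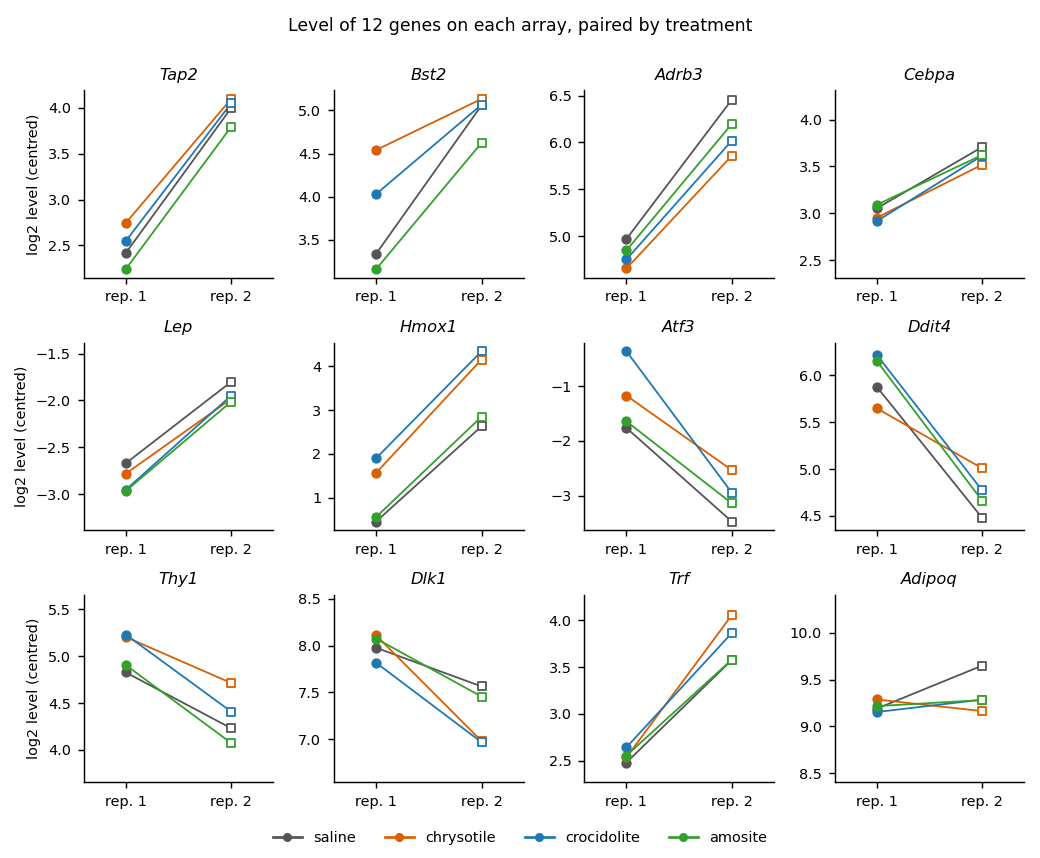
Level of 12 genes on each array (vertical axis, log2 intensity relative to the 75th percentile of the array), with replicate 1 on the left, replicate 2 on the right and a line joining the arrays of 1 treatment. Tap2, Cebpa, Lep and Trf are separated in all 4 treatments by more than their spread, Hmox1 falls to 0.45 to 1.90 in replicate 1 against 2.63 to 4.34 in replicate 2, and Adipoq overlaps.

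Among adipokines, leptin and resistin fell. Lep, the satiety hormone, was among the dimmer probes, with levels of -2.67, -2.78, -2.96 and -2.97 in saline, chrysotile, crocidolite and amosite cells of replicate 1, against -1.80, -1.98, -1.95 and -2.01 in replicate 2. The 2 sets were separate by more than their spread (difference -0.91 ± 0.08, adjusted p = 0.0092). Retn, encoding resistin, fell by 0.62 ± 0.12, and its second probe by 0.53 ± 0.10. The other 10 of 12 adipokine genes above background were not called, and the list median was -0.14. Over all probes, 3.17% fell.

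Lipid droplet and lipolysis genes had a median difference of -0.26, with 15 of 18 negative and 12 lower in all 4 treatments (17.4% of all probes). Of these 18 genes 3 fell, where 3.17% of all probes fell. Bscl2, the seipin of droplet formation, fell by 0.74 ± 0.08, Mgll, the monoglyceride lipase, by 0.56 ± 0.13, and Plin1 as above. In de novo lipogenesis 1 of 19 genes fell, against the same 3.17% of all probes. It was Pnpla3, a carbohydrate-responsive lipid enzyme, which fell by 0.79 ± 0.09 and by 0.84 ± 0.08 with its second probe. For insulin signalling the median was -0.22, and 5 of 19 genes fell while 2 rose, where 3.17% of all probes fell and 3.61% rose. Irs2, an insulin receptor substrate, fell by 0.50 ± 0.08, Pde3b, the phosphodiesterase through which insulin restrains lipolysis, by 0.55 ± 0.08, and Tbc1d4, which controls Glut4 traffic, by 0.41 ± 0.10 (second probe -0.16 ± 0.11, not called). The adaptor Cbl fell by 0.56 ± 0.11. The inhibitors of the pathway Trib3 and Gsk3b rose by 0.77 ± 0.17 and 0.67 ± 0.13. The other Gsk3b probes gave -0.24 ± 0.15 and -0.01 ± 0.13 and were not called, so its rise rests on 1 of 3 probes. No insulin gene was called without the chrysotile, crocidolite or amosite pair, and 3 lower and 1 higher were called without the saline pair. Of the 3 droplet calls, 1 remained without the saline or chrysotile pair and 0 without the crocidolite or amosite pair.

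**Figure D3:**
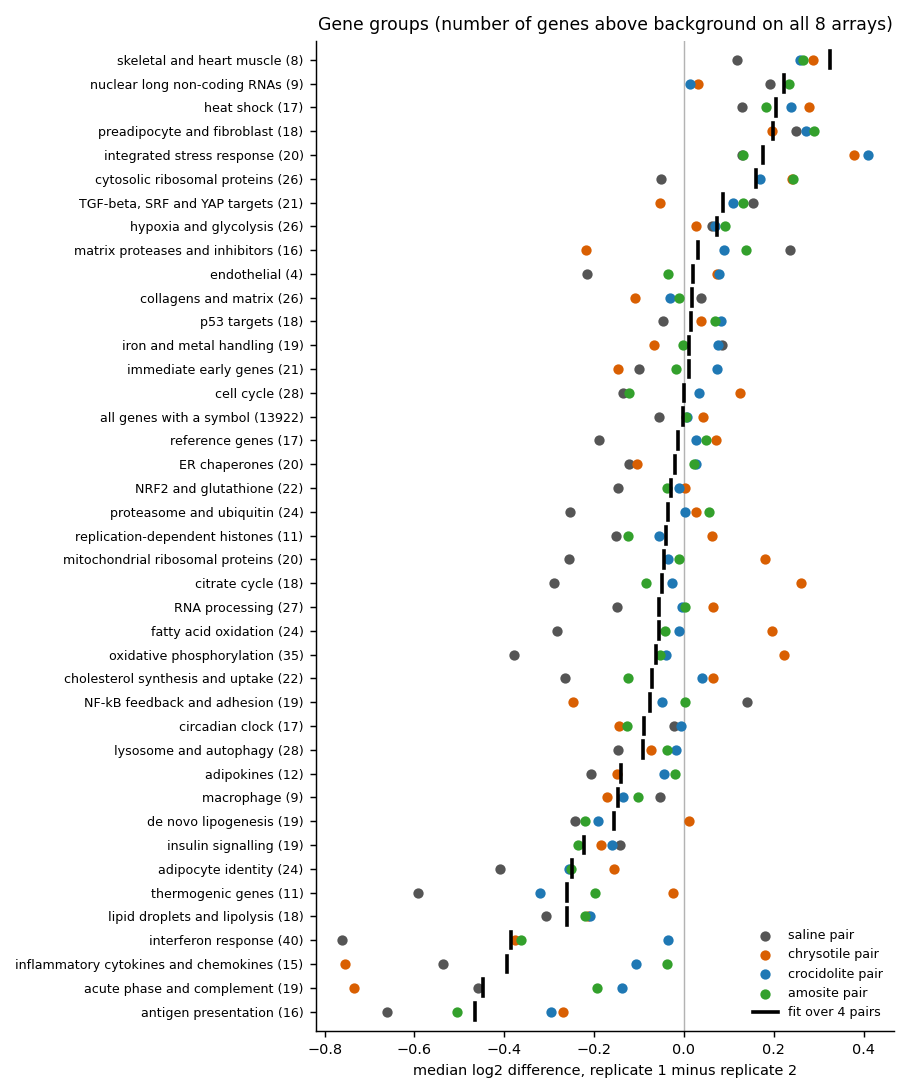
Median log2 difference, replicate 1 minus replicate 2, for each gene list in each treatment pair (dots) and for the fitted differences over the 4 pairs (black bars), with the number of genes above background on all 8 arrays in brackets. Antigen presentation has the lowest fitted median (-0.47) and integrated stress response lies at 0.18, while oxidative phosphorylation runs from -0.38 in the saline pair to 0.22 in the chrysotile pair.

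Preadipocyte and fibroblast genes moved the other way. Of 18 above background, 7 rose and 0 fell, where 3.61% of all probes rose, and the median was 0.20. The list was not uniform, since 6 of the 18 had a negative difference and 4 of these were lower in all 4 treatments. Thy1, a fibroblast surface glycoprotein, had levels of 4.83, 5.21, 5.23 and 4.91 in saline, chrysotile, crocidolite and amosite cells of replicate 1, against 4.23, 4.71, 4.41 and 4.07 in replicate 2. Each array of replicate 1 exceeded each array of replicate 2, by 0.69 ± 0.10 on average (adjusted p = 0.0199). Dlk1, the preadipocyte factor that restrains adipogenesis, had levels of 7.98, 8.11, 7.82 and 8.07 in replicate 1, against 7.56, 6.98, 6.97 and 7.45 in replicate 2. It rose by 0.75 ± 0.14 (adjusted p = 0.0336), with no overlap. Gata2, a transcription factor that blocks adipocyte differentiation, rose by 1.00 ± 0.22, and Pi16, a marker of fibroblast progenitors, by 0.95 ± 0.10. Pdgfra, the receptor that marks fat progenitors, was higher by 0.43 ± 0.10 and just missed the threshold (adjusted p = 0.050). The summed level of the list was 9.33 to 9.59 in replicate 1 and 9.06 to 9.21 in replicate 2, while that of adipocyte identity genes was 12.08 to 12.15 in replicate 1 and 12.13 to 12.42 in replicate 2. The 7 calls became 4 without the saline pair, 2 without chrysotile and 0 without crocidolite or amosite, and the list median was 0.02 with normexp background correction.

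Several contractile genes also rose. Of 21 TGF-beta, SRF and YAP targets, 5 rose and 1 fell (median 0.09), where 3.61% of all probes rose and 3.17% fell. Acta2 and Actg2, the smooth muscle actins, rose by 0.89 ± 0.14 and 1.11 ± 0.09. Acta2 had levels of 3.74, 4.17, 4.79 and 4.05 in saline, chrysotile, crocidolite and amosite cells of replicate 1, against 2.64, 3.70, 3.93 and 2.91 in replicate 2, so the numbers overlapped while each pair differed the same way. Tpm2, Cnn2 and Myl9, which encode a tropomyosin, a calponin and a myosin light chain, rose by 0.56 ± 0.11, 0.49 ± 0.08 and 0.41 ± 0.09. Ccn2, a matricellular target of YAP and TGF-beta, fell by 1.51 ± 0.27. Because Ccn2 went against the others, the list did not move in 1 direction. Of the 6 calls 2, 2, 1 and 0 remained without the saline, chrysotile, crocidolite and amosite pair. Among muscle markers Acta1, the skeletal actin, rose by 0.72 ± 0.11, and 8 of 17 were above background on all arrays.

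Matrix genes were mixed. Of 26 collagen and matrix genes, 2 rose and 3 fell (median 0.02), where 3.61% of all probes rose and 3.17% fell. Col8a1, a short-chain collagen, fell by 0.72 ± 0.08, and Col15a1, a basement membrane collagen, rose by 0.85 ± 0.15. The other Col15a1 probes gave -0.09 ± 0.18 and -0.26 ± 0.20 and were not called. Col6a2, another collagen, fell by 0.44 ± 0.08, while its second probe gave 0.42 ± 0.12, against that direction, and was not called. Of 16 matrix proteases and inhibitors above background, 3 rose and 1 fell. Serpine2, an inhibitor of thrombin and plasminogen activators, rose by 0.99 ± 0.11 and Plat, the tissue plasminogen activator, by 0.72 ± 0.15. Mmp2, the gelatinase, rose by 0.44 ± 0.08, while Timp4, a metalloproteinase inhibitor, fell by 0.48 ± 0.11. Without the amosite pair none of these matrix genes was called, and likewise without the crocidolite pair.

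The integrated stress response was the list with the most members that rose. Of 20 genes, all above background, 8 rose and 0 fell (3.61% of all probes rose), with a median difference of 0.18. Atf3, a stress-induced transcription factor, had levels of -1.76, -1.17, -0.36 and -1.64 in saline, chrysotile, crocidolite and amosite cells of replicate 1, against -3.47, -2.53, -2.95 and -3.14 in replicate 2. Every replicate 1 array lay above every replicate 2 array (difference 1.79 ± 0.24, adjusted p = 0.0167). Ddit4, an inhibitor of mTORC1, had levels of 5.88, 5.65, 6.22 and 6.15 in replicate 1, against 4.48, 5.01, 4.77 and 4.66 in replicate 2. It rose by 1.25 ± 0.18, again without overlap. Gdf15, a stress hormone, rose by 0.92 ± 0.17, Ddit3, the CHOP transcription factor, by 0.56 ± 0.08, and Ppp1r15a, which brings a phosphatase to eIF2 alpha, by 0.54 ± 0.11. Mthfd2, a mitochondrial folate enzyme, and Slc7a5, an amino acid transporter, rose by 0.50 ± 0.08 and 0.41 ± 0.08. A second Slc7a5 probe gave -0.17 ± 0.10, against that direction, and was not called. Trib3, already named with insulin signalling, is the eighth. The 8 calls became 3, 2, 1 and 0 without the saline, chrysotile, crocidolite and amosite pair.

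The core of the C/EBP-ATF response element, TGATGNAA on either strand, was found in the promoters of 5 of 19 list genes, against 2.54% of 10974 genes above background. Of the 7 genes with a promoter sequence that rose, Atf3 alone had it. The promoter stretches of Atf3 and of Asns, the asparagine synthetase with a difference of 0.40 ± 0.13 (not called), are shown 5′ to 3′ on the strand of the gene with the match in capitals (GRCm38.p6).
Atf3, chr1:191183396-191183483, minus strand: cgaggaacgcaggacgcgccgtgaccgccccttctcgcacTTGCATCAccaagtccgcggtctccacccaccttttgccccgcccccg
Asns, chr6:7693210-7693272, minus strand: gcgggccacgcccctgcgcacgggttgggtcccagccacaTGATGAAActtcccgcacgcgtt

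Other stress lists were divided. Of 17 heat shock genes 15 had a positive difference (median 0.21). Of the 17, 2 rose and 1 fell, where 3.61% of all probes rose and 3.17% fell. Hsph1, a co-chaperone of Hsp70, rose by 0.55 ± 0.10 and by 0.57 ± 0.11 with its second probe. Hsp90aa1, the inducible Hsp90, rose by 0.46 ± 0.09, while Hspb8, a small heat shock protein, fell by 0.50 ± 0.08. Neither rise was called when any 1 of the 4 pairs was left out. Of 20 endoplasmic reticulum chaperones 2 fell (3.17% of all probes did), and the median was -0.02. The 2 were the disulphide isomerases Pdia3, by 0.46 ± 0.09, and Pdia4, by 0.33 ± 0.08, and neither was called when any 1 pair was left out. Immediate early genes were split as well. Of 21, 3 fell and 1 rose, and the median was 0.01. Of these 4 calls 2, 1, 0 and 0 remained without the saline, chrysotile, crocidolite and amosite pair. Fos, Junb and Egr2, transcription factors induced within minutes of a stimulus, fell by 0.85 ± 0.18, 0.86 ± 0.18 and 0.60 ± 0.09, and the kinase Sgk1 rose by 0.70 ± 0.08. Of 18 p53 targets 3 rose (3.61% of all probes did), 8 had a negative difference, and the median was 0.02. Trp53inp1 rose by 0.55 ± 0.09, Zmat3 by 0.47 ± 0.11 and Cdkn1a, the p21 cell cycle inhibitor, by 0.37 ± 0.08. The second Cdkn1a probe gave -0.23 ± 0.14, against that direction. With median centring 1 of the 3 was called (list median -0.05), and 0 when any 1 pair was left out.

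Hmox1, the haem oxygenase induced by haem and oxidants through NRF2, had the largest fall among the genes named by the smallest p. Its brighter probe (chr8:77624207-77624266, mm9) had levels of 0.45, 1.56, 1.90 and 0.55 in saline, chrysotile, crocidolite and amosite cells of replicate 1, against 2.63, 4.15, 4.34 and 2.85 in replicate 2. The chrysotile and crocidolite arrays were the higher ones within each number, and every replicate 1 array lay below the lowest replicate 2 array. The difference was -2.38 ± 0.10 (adjusted p = 0.0042). The second Hmox1 probe gave -0.89 ± 0.23 and was not called. The rest of the NRF2 and glutathione list did not follow, with a median of -0.03 over 22 genes and 1 other call, the pentose phosphate enzyme Tkt, which fell by 2.19 ± 0.30. Of 19 iron and metal genes only Trf, the transferrin gene, was called (3.17% of all probes fell). Its levels were 2.48, 2.54, 2.64 and 2.55 in replicate 1, against 3.58, 4.05, 3.86 and 3.58 in replicate 2 (same order of treatments), a fall of 1.22 ± 0.11 without overlap. The second Trf probe fell by 1.5 ± 0.20.

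The median difference of acute phase and complement genes was -0.45. Of 19, 3 fell and 1 rose, where 3.17% of all probes fell and 3.61% rose. Cfb, a protease of the alternative complement pathway, fell by 1.14 ± 0.18, C3, the central complement protein, by 0.45 ± 0.10, and Orm1, an acute phase glycoprotein, by 0.63 ± 0.15. The second C3 probe gave -0.38 ± 0.10 and was not called. Cfb varied with treatment at the same time, with levels of 1.99, 3.00, 3.71 and 2.02 in saline, chrysotile, crocidolite and amosite cells of replicate 1, against 3.14, 4.72, 4.51 and 2.94 in replicate 2, so the numbers overlapped. The list was lower mainly in the saline and chrysotile pairs, with medians of -0.46 and -0.73 against -0.14 in crocidolite and -0.19 in amosite. Without the saline or chrysotile pair 1 gene was called lower, and without the crocidolite or amosite pair 0.

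Saa3 and Ccl2 varied widely among treatments and were not called between the numbers. Saa3, an acute phase protein of mouse adipocytes, had levels of -3.97, -0.96, 1.00 and -2.92 in saline, chrysotile, crocidolite and amosite cells of replicate 1, against -2.87, 2.38, 1.03 and -2.50 in replicate 2. Its pair difference was near 0 with crocidolite and largest with chrysotile, and the mean was -1.22 ± 0.61. Ccl2, the monocyte chemokine, had levels of -0.66, 2.04, 2.33 and 0.26 in replicate 1, against 0.35, 3.67, 2.51 and 0.68 in replicate 2, a difference of -0.81 ± 0.27. Spp1, encoding osteopontin, and Lcn2, encoding lipocalin-2, differed by -0.33 ± 0.21 and -0.16 ± 0.52. Of 15 inflammatory cytokines and chemokines above background, 1 fell and 1 rose, where 3.17% of all probes fell and 3.61% rose. The T cell chemokine Cxcl9 fell by 0.46 ± 0.11 and Ccl5, a chemokine for T cells and monocytes, rose by 0.57 ± 0.13. Neither was called with normexp background correction or when any 1 pair was left out. The list median was -0.39, with -0.54 and -0.75 in the saline and chrysotile pairs and -0.11 and -0.04 in crocidolite and amosite. None of 19 NF-kB feedback and adhesion genes was called.

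Mitochondrial genes differed between the numbers in opposite directions in 2 treatments. Of 35 oxidative phosphorylation genes, 3 were higher in replicate 1 in the saline pair and 34 in the chrysotile pair, with medians of -0.38 and 0.22. The crocidolite and amosite pairs had medians of -0.04 and -0.05. Citrate cycle genes went the same way, with -0.29 in saline and 0.26 in chrysotile, and so did mitochondrial ribosomal proteins, with -0.25 and 0.18. Signs were opposite in other genes too. Cell cycle genes had medians of -0.14 in saline and 0.13 in chrysotile, and the brightest 10% of probes -0.09 and 0.09. Mdh2, a malate dehydrogenase of the citrate cycle, had levels of 8.39, 8.34, 8.18 and 8.36 in saline, chrysotile, crocidolite and amosite cells of replicate 1, against 8.83, 8.28, 8.37 and 8.65 in replicate 2. Its saline array of replicate 2 was the highest of the 8. No gene of these 3 lists was called, and the interaction of number and treatment could not be tested with 1 array per cell of the design. Fatty acid oxidation genes had a median of -0.06, with -0.28 in saline and 0.20 in chrysotile. Of these 24 genes 2 fell and 1 rose, where 3.17% of all probes fell and 3.61% rose. Slc25a20, the carnitine-acylcarnitine carrier, fell by 1.90 ± 0.19 and Ehhadh, a peroxisomal enzyme, by 0.81 ± 0.12. Acads, a short-chain dehydrogenase, rose by 0.93 ± 0.14.

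Cytosolic ribosomal protein genes showed a small shift to higher values in replicate 1. Of 26, 24 had a positive difference, with a median of 0.16, or 0.06 after quantile normalization. Rps16, a small subunit protein, rose by 0.34 ± 0.08, and all 3 of its probes were called. It was the 1 call of the list (3.61% of all probes rose). Its level was 7.88, 8.09, 8.01 and 7.91 in replicate 1, against 7.66, 7.73, 7.67 and 7.47 in replicate 2, in the order saline, chrysotile, crocidolite and amosite. It was not called with median centring, with quantile normalization or when any 1 pair was left out.

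Housekeeping genes did not move together. The median difference of 17 reference genes was -0.01, and 1 was called, Ywhaz, a 14-3-3 protein, which rose by 0.43 ± 0.09 with 1 of its 3 probes (the others gave 0.27 ± 0.14 and 0.15 ± 0.08). It was not called with median centring or when any 1 pair was left out. Actb averaged 8.75 ± 0.11 in replicate 1 and 8.59 ± 0.10 in replicate 2 (SD, n = 4), and Gapdh 9.84 ± 0.16 in replicate 1 and 9.74 ± 0.14 in replicate 2. None of 24 proteasome and ubiquitin, 28 lysosome and autophagy or 11 histone genes was called. Of 28 cell cycle genes 1 rose and 1 fell, where 3.61% of all probes rose and 3.17% fell. Cdt1, a replication licensing factor, rose by 0.49 ± 0.09 and Ccna2, the cyclin of S phase, fell by 0.41 ± 0.08. Neither was called when any 1 pair was left out. Single calls were near the 3.61% of all probes that rose in hypoxia and glycolysis genes, with 1 of 26 higher, and in circadian clock genes, with 1 of 17 higher. The clock gene was called in none of the other settings run, and without the saline, crocidolite or amosite pair no hypoxia gene was called. Cholesterol genes gave 3 of 22, where 6.78% of all probes were called in either direction. Of the 3, 2 rose and 1 fell. Among them were Fdps, a farnesyl diphosphate synthase, which rose by 0.90 ± 0.18, and Srebf2, described with the probes below. Of 27 RNA processing genes 2 rose and 1 fell, the splicing factor Srsf5, by 0.87 ± 0.08. Of 9 nuclear long non-coding RNAs above background, H19, an imprinted transcript, rose by 1.34 ± 0.18 and Malat1, a nuclear speckle RNA, fell by 0.72 ± 0.12. The other H19 probes gave 0.40 ± 0.11 and 0.37 ± 0.20 and were not called. The endothelial list had 4 of 12 genes above background, of which Flt1, a VEGF receptor, fell by 0.78 ± 0.08 and with its second probe by 0.64 ± 0.15.

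The other genes of smallest p belonged to no shared list. Stbd1, a glycogen-binding protein, rose by 2.20 ± 0.13, with levels of 0.49, 1.17, 1.38 and 0.76 in saline, chrysotile, crocidolite and amosite cells of replicate 1, against -1.94, -0.67, -0.79 and -1.60 in replicate 2. Srrm2, a splicing scaffold, rose by 1.25 ± 0.08 (its next probe gave 0.47 and was not called) and Gm960 by 1.45 ± 0.09. Trpv1, the capsaicin-gated channel, fell by 1.70 ± 0.09, with levels of -2.14, -1.76, -1.77 and -2.39 in replicate 1, against -0.51, 0.09, -0.02 and -0.82 in replicate 2. Abcd2, a peroxisomal transporter of fatty acids, fell by 1.22 ± 0.08. In these genes every treatment pair differed in the same direction and the numbers did not overlap. Which exon or untranslated region these probes cover was not analysed here.

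The largest differences, chosen after their values were seen, were often seen with 1 probe of a gene and not with another. Gprc5b, an orphan receptor, had levels of 3.65, 3.63, 3.72 and 3.75 in saline, chrysotile, crocidolite and amosite cells of replicate 1, against 0.46, -0.13, -0.25 and 2.80 in replicate 2 by 1 probe (2.97 ± 0.57), and a difference of 0.02 ± 0.08 by another. The amosite array of replicate 2 stood apart from the other replicate 2 arrays. Chmp4b, a subunit of the ESCRT membrane-cutting complex, differed by 2.76 ± 0.21 with 1 probe and by 0.29 ± 0.08 and 0.28 ± 0.09 with the others. For Myo1c, an unconventional myosin, the probes gave 2.56 ± 0.16 and 0.12 ± 0.11, and for Srebf2, the regulator of cholesterol synthesis, 2.14 ± 0.22 and 0.42 ± 0.19. Of 97 genes of the lists that were called, 29 had another probe above background on all arrays. In 11 of the 29, among them Adrb3, Trf, Dlk1, H2-K1 and Rps16, every such probe was called in the same direction, and in 6 at least 1 probe had the opposite sign. Of 511 genes with a called probe and at least 1 other probe above background, the next probe had the same sign in 420 (82.2%), was also called in that direction in 100 (19.6%), and lay within 0.2 log2 of 0 in 221 (43.2%). The lead probe was the one chosen for its difference. Among 45 genes whose lead probe differed by more than 2-fold, the next probe was called the same way in 14 and lay near 0 in 12.

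**Figure D4:**
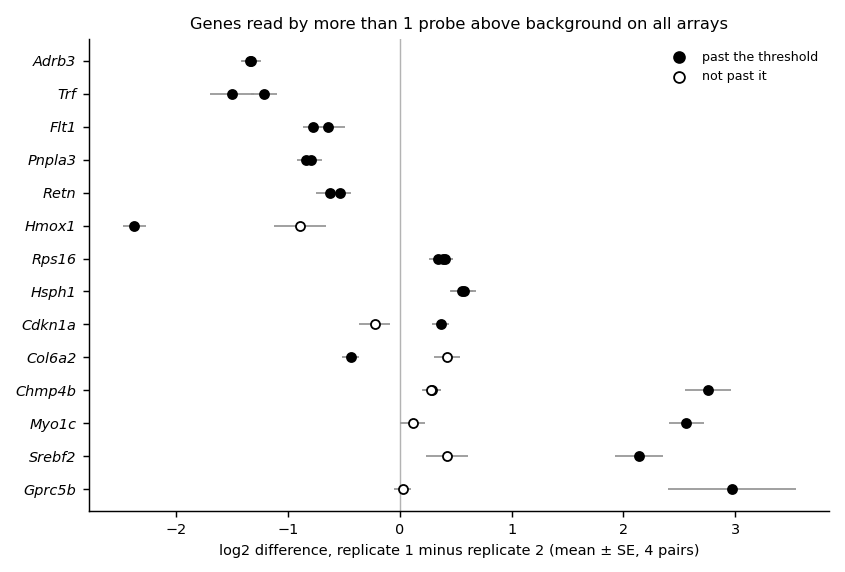
Log2 difference, replicate 1 minus replicate 2 (points, mean; bars, SE over 4 pairs), for each probe of 14 genes that have more than 1 probe above background on all 8 arrays (filled, called; open, not called). The 2 probes of Adrb3 lie at -1.34 and -1.33, while those of Gprc5b lie at 2.97 and 0.02.

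Probe brightness mattered for the direction of the difference. Over all 55672 probes the median difference was 0.08, against 0.01 over the probes above background on all 8 arrays. In 10 equal bins of probes by mean intensity, the median was 0.28 in bin 2, 0.53 in bin 3 and 0.31 in bin 4, and between -0.01 and 0.02 in bins 6 to 10. The shift of bin 3 was 0.75 in the saline pair, 0.92 in chrysotile, 0.19 in crocidolite and 0.26 in amosite. No probe of bins 1 to 4 was above background on all arrays, so the genes named with a call above lie outside them. With quantile normalization, the probes at an unadjusted p under 0.05 were 5327 higher and 4975 lower. Probe GC content (r = 0.01), spot row (r = -0.03) and spot column (r = -0.00483) were close to unrelated to the difference among the 28695 probes.

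**Figure D5:**
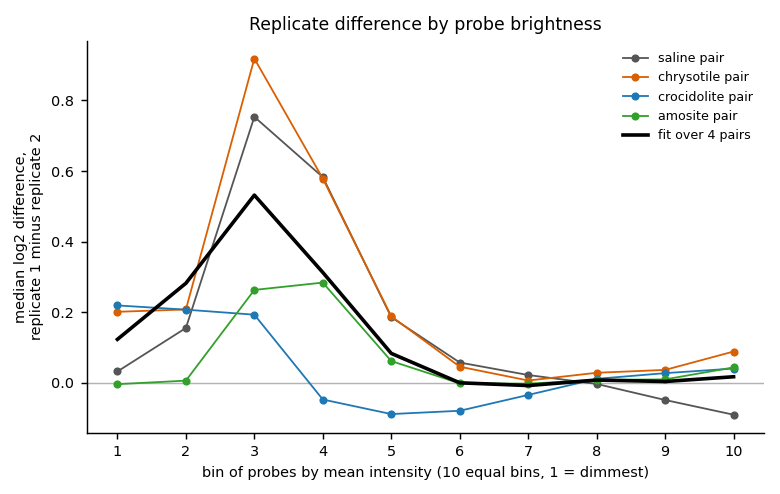
Median log2 difference, replicate 1 minus replicate 2, in 10 equal bins of the 55672 probes ordered by mean intensity, for each treatment pair (coloured lines) and for the fit over the 4 pairs (black line). The fitted median reaches 0.53 in bin 3 and stays between -0.01 and 0.02 in bins 6 to 10.

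Array-level measures pointed the same way in several cases. The bright corner spots, which serve to align the scan, had a median intensity of 27215 ± 1644 in replicate 1 and 22392 ± 2681 in replicate 2 (SD, n = 4), and were brighter in replicate 1 in 4 of 4 pairs. Local background was 33.5 ± 1.0 in replicate 1 and 32.1 ± 0.85 in replicate 2, and negative controls gave 33.3 ± 0.77 in replicate 1 and 31.8 ± 1.4 in replicate 2, both higher in 4 of 4 pairs. The exact paired sign-flip test over 4 pairs cannot go below p = 0.125, two-sided, which these measures reached (0.275 after Benjamini-Hochberg adjustment over 11 measures). The share of probes above background was 59.8% in replicate 1 and 58.5% in replicate 2 (exact p = 0.375). The part of these array differences in the gene differences was not tested.

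Replicate number also entered the spread used for treatment comparisons. The limma F test over the 3 fibre coefficients called 0 of 55672 probes with the number as a replicate block (4286 at an unadjusted p under 0.05) and 0 without it (2327 at an unadjusted p under 0.05). Over the 28695 probes above background on all arrays, the median residual SD was 0.129 with the number and 0.175 without it.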

How the data were processed

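The deposited files give spot intensity on a linear scale for 1-colour Agilent arrays, read with Feature Extraction 10.7 per the submitters' processing notes. Per the file headers the authors' scanner software had subtracted background, corrected spatial and multiplicative trends and put surrogate values near background, without scaling arrays to each other. The same intensity stands in the deposited value table (largest difference 0). Per the file headers and labels no further step is given in the sources used here.

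After removal of control spots and flagged spots (99 to 183 per array), repeated spots were averaged, 9 probes missing on an array were dropped, and log2 intensity was centred on each array's 75th percentile over the remaining 55672 probes. Symbols were updated through RefSeq accessions for 26861 probes, 3751 kept the file's symbol and 25060 have none. The comparison was fitted with limma 3.58.1 in R 4.3.3 (treatment as a fixed block, 3 residual degrees of freedom, two-sided, Benjamini-Hochberg at 0.05), and tested on simulated data. A list is read by the brightest probe of each gene. The precision is limited by the number of arrays.

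Arrays were assigned to a number by title alone, but the choice to compare the numbers, the 41 gene lists (866 genes) and the tests were made with earlier results of these data known. Named genes are the 5 of smallest p in each direction, since no probe passed the threshold with all probes, called members of each list, a panel of 12 genes, and the 12 largest called differences in each direction, the last chosen after values were seen. Some of these genes are not reported here. No gene of the 13 mitochondrially encoded transcripts was measured. Pair differences of separate treatments correlated at 0.27 to 0.57 across probes. The number is also the slide column, and what it stands for was not tested. Python 3.11.15 with pandas 2.3.3 and matplotlib 3.10.9 was used for summaries and figures. Alternatives covered centring, normalization, background correction, dim probes, variance prior, treatment block, probes per gene and leaving out pairs.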

Additional observations from a re-analysis of the deposited data

Results flagged for a closer look

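In 6 of 165 sets of 4 pair differences, 1 treatment lay far from the others. Chance would place about 5% of sets there, so the count was no larger than chance would give. The saline pair stood apart for lipid droplet genes (median -0.31), for reference genes (median -0.19) and for Fabp4 (-0.44). The chrysotile pair stood apart for Srebf2 (1.39) and for Pcx, encoding pyruvate carboxylase (0.040). The crocidolite pair stood apart for Relb, an NF-kB subunit (0.071), by 1 probe only. A second Relb probe gave 0.15 in saline, -0.27 in chrysotile, 0.18 in crocidolite and -0.20 in amosite. A further probe gave -0.37, -0.04, 0.09 and 0.05 in the same order. The cause was not tested.

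In 3 lists nearly all genes differed in opposite directions in the saline and chrysotile pairs. The medians were -0.38 in saline and 0.22 in chrysotile for oxidative phosphorylation, -0.29 and 0.26 for the citrate cycle, and -0.25 and 0.18 for mitochondrial ribosomal proteins. The difference between the pairs was not tested.

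The E1A control probes, which belong to no comparison of the genes, had a mean of the median intensity of 8.49 in replicate 1 and 3.81 in replicate 2, and were higher in replicate 1 in 4 of 4 pairs (exact p = 0.125, the smallest possible). The ERCC control probes had 5.54 in replicate 1 and 3.8 in replicate 2. Both sets lay close to background.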

How the results depend on the processing

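With all probes the count of calls was 0 with median centring, quantile normalization, 1 probe per gene, the mean of a gene's probes, the deposited value table and each pair left out (0 to 0). It was 3572 with normexp background correction, 790 with probes above background on both arrays of at least 1 treatment, 1946 with probes above background on all 8 arrays, 1511 with a trended and robust prior, 1025 without the treatment block and 2217 with treatment as a random block. Unadjusted counts under 0.05 were 10516 in the main setting, 9415 with median centring and 10302 with quantile normalization.

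Among probes above background on all 8 arrays, for which these alternatives were chosen after seeing the data, 1946 calls (1037 higher, 909 lower) became 3356 (1896, 1460) with normexp and 3329 (1758, 1571) with a trended and robust prior. Median centring gave 2354 (808, 1546) and quantile normalization 2072. Without 1 pair the range was 26 to 957, with 15 to 437 higher and 11 to 520 lower. Of the 1946, 1521 stayed called with median centring, 1796 with quantile normalization, 1675 with normexp (2 reversed) and 1759 with the trended prior.

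Of the named genes, 2 changed sign, and neither was called. Cfd gave -0.044 with median centring, -0.011 with normexp and -0.034 to 0.086 with 1 pair left out, lowest without chrysotile and highest without saline. Lcn2 gave -0.49 without amosite and 0.45 without chrysotile. Array-level means without 1 pair kept their direction, with the exception of the 75th percentile and the spot CV. The cause was not tested.

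The replicate block changed no call of the treatment F test, with 0 calls in both fits (2327 unadjusted without it, 4286 with it). In the replicate comparison the pairing by treatment is the main fit. Scaling on spike-in controls was not run, because those probes lay near background.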
